A study of Mus musculus with 191 samples.

Results

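The lungs described here came from female B6C3F1 mice that inhaled methylene chloride at 100, 500 or 2000 ppm, the low and middle concentrations of a series that also held 3000 and 4000 ppm. They are the 13 arrays titled MECL-100 (5 arrays), MECL-500 (4) and MECL-2000 (4) of the 21 arrays of the methylene chloride series, 3 of the 48 exposure and control groups of the whole study. They were chosen by title and set against 14 arrays of mice that breathed air, in the sets titled ACO3 (4), ACO4 (5) and ACO5 (5). Exposure lasted 13 weeks, for 6 hours a day on 5 days a week, and all of these mice were labelled as 18 weeks of age. Total RNA of the right lung lobe, kept in RNAlater, was hybridised to Affymetrix mouse expression arrays, 1 array for each mouse by the individual numbers in the labels. B6C3F1 is the hybrid of the C57BL/6 and C3H strains that is used in long-term carcinogenicity studies. All other labelled conditions (inhalation, air as the vehicle, sex, strain, lobe) were shared by the exposed and the air mice, and the zero dose of ACO3 was labelled in mg/m3 where the other sets have ppm. The labels give neither the time of day of collection nor which air set ran beside which chemical. The RNA integrity number was labelled for 7 of the 13 exposed arrays (7.3 to 9.4) and 13 of the 14 air arrays (6.1 to 9.5).

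Methylene chloride, or dichloromethane, is a volatile solvent. In rodents the P450 enzyme Cyp2e1 oxidises it to carbon monoxide, which binds hemoglobin, and glutathione transferases of the theta class conjugate it on a route that yields formaldehyde. Club cells, the secretory cells of the bronchioles, carry much of the P450 activity of the mouse lung, and lung tumours are known from mice that inhaled the solvent for long periods.

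Before any comparison, one feature of the deposited values has to be stated. The 13 arrays at 100, 500 and 2000 ppm and the 4 arrays at 3000 ppm shared the same array mean, 0.00043, and no air array had it. ACO3, ACO4 and ACO5 each had an array mean of their own (0.00334, 0.00114 and -0.00269), and the MECL-4000 arrays shared that of ACO4. The labels put all these arrays in 1 batch. Comparisons among 100, 500, 2000 and 3000 ppm therefore lie within arrays of 1 shared mean, while each comparison with air crosses from one such set to another, so that exposure and set cannot be told apart there. The array median was -0.36 to -0.33 in the 13 exposed arrays and -0.41 to -0.35 in the 14 air arrays (difference of means 0.04, two-sided permutation test, p = 2e-05, the smallest that 100000 resamples can give). At 3000 ppm, in arrays with the mean of the exposed arrays, the median was -0.41 to -0.33. The permutation tests here treat single arrays as exchangeable, so their p-values do not measure the spread between sets of shared array mean. The 3′ probe set of Gapdh exceeded its 5′ probe set by 0.058 to 0.26 in exposed arrays and by 0.13 to 0.42 in air arrays (difference of means -0.14, permutation p = 4e-05). For Actb the same measure was 0.58 ± 0.10 and 0.64 ± 0.13 (SD, n = 13 and 14, permutation p = 0.193). A larger 3′ excess is a common sign of RNA breakdown. The labelled RNA integrity numbers did not order the groups in that way. They were 7.3 to 8.9 at 100 ppm, 6.1 to 9.1 in ACO3, 7.8 to 9.5 in ACO4 and 9.1 to 9.5 in ACO5. RNA quality as a source of these differences was not tested.

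Lung markers lay far above the median of all values. Sftpc, the surfactant protein of alveolar type 2 cells, lay at 6.61 to 7.06 at 100 ppm, 6.68 to 6.94 at 500 ppm and 6.74 to 6.94 at 2000 ppm, on a log scale, taken as base 2, whose median over all values was -0.39. All levels and differences below are on that scale. Scgb1a1 of club cells (6.59 to 6.82 at 2000 ppm) and Ager of alveolar type 1 cells (6.39 to 6.48) also lay far above that median, as did Pecam1 of endothelium (3.39 to 3.74). Of the 18194 genes with a probe set, 13524 passed the filter on low values and were tested with limma. A gene was called at a Benjamini-Hochberg adjusted p under 0.05, and against air only where it passed in the same direction against each of ACO3, ACO4 and ACO5. Between the air sets 0 genes were called, and 282 to 384 had an unadjusted p under 0.05. That is a smaller share of genes than the 0.05 that chance alone would give, so these counts do not show that the sets agree.

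The first question was which genes followed the concentration from 100 to 2000 ppm. Few did, all upward. In a linear fit over the 13 exposed arrays, 5 of 13524 genes rose with concentration and none fell (0.037% called, limma), while 1214 reached an unadjusted p under 0.05. The genes called were Wfdc3 and Wfdc2, which encode secreted proteins with whey acidic protein domains, Cxcl17, a chemokine of mucosal epithelium, Mt1, a metallothionein that binds zinc and cadmium, and Aldh3b1, an aldehyde dehydrogenase that oxidises lipid aldehydes. Group means at 100, 500 and 2000 ppm were -0.58, -0.57 and -0.21 for Wfdc3 and 5.04, 5.06 and 5.34 for Wfdc2. For Cxcl17 they were 2.045, 2.072 and 2.874, for Mt1 2.69, 2.83 and 3.17 and for Aldh3b1 1.29, 1.35 and 1.60. The linear fit does not tell a gradual rise from a step at 2000 ppm.

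Wfdc3 was the one gene that passed in every direct comparison of 2000 ppm with a lower concentration. Its log2 values were -0.55, -0.60, -0.61, -0.62 and -0.53 at 100 ppm, -0.59, -0.58, -0.59 and -0.52 at 500 ppm, and -0.44, -0.20, -0.14 and -0.055 at 2000 ppm. All 4 arrays at 2000 ppm lay above every array at 100 and 500 ppm, and one of them lay nearer to the lower groups than the other 3. The difference was 0.37 ± 0.055 (SE) between 2000 and 100 ppm (adjusted p = 2.71e-06) and 0.36 ± 0.058 between 2000 and 500 ppm (adjusted p = 3.88e-05). Wfdc3 was 1 of 13524 genes called in each of these comparisons (0.00739%), while 161 and 152 reached an unadjusted p under 0.05. Both counts are below the share of 0.05 that chance alone would give. Against air, 2000 ppm was higher by 0.33 ± 0.046, with adjusted p-values of 0.00104, 2.69e-05 and 0.000221 against ACO3, ACO4 and ACO5, and 3 of its 4 arrays exceeded all 14 air arrays, which spanned -0.63 to -0.35 (median -0.56). At 3000 and 4000 ppm the values were -0.046 to 0.15 and 0.02 to 0.18, above 2000 ppm by 0.28 ± 0.05 (adjusted p = 0.000106). These are low levels: all arrays at 100 and 500 ppm lay below the median of all values (-0.39), and so did the median air array. A second, dimmer probe set of Wfdc3 averaged -0.53 ± 0.044 at 2000 ppm and -0.49 ± 0.087 at 100 ppm (SD, n = 4 and 5). With the probe sets averaged, the difference between 2000 and 100 ppm was 0.17 (adjusted p = 0.161). The spread of all arrays of the study enters these tests. In a fit of the 17 arrays with the shared array mean, an alternative added after the data were seen, the adjusted p for 2000 against 100 ppm was 0.0518 and for 2000 against 500 ppm 0.191.

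Wfdc3 and Wfdc2 lie in the same stretch of chromosome 2 (chr2:164731226-164745994 and chr2:164562715-164568510 in GRCm38.p6), 162716 bases apart by these RefSeq coordinates, while Mt1 lies at chr8:94178883-94180327, Cxcl17 at chr7:25400053-25412886 and Aldh3b1 at chr19:3913491-3930898. RefSeq promoter windows of 300 bases (250 before to 50 after a transcript start) were matched for Wfdc3, Wfdc2, Mt1 and Aldh3b1. Metallothionein genes are known for metal response elements, so a loose form of their core, TGCNCNC, was sought on both strands, allowing overlaps. It occurred 3 times in the Mt1 window, once in those of Wfdc2 and Aldh3b1, and 0 times in that of Wfdc3, and 51.0% of all 32851 windows held it. The 3 windows below show which of these genes that rose together carry TGCNCNC near the transcript start used, with each match of this loose form in capitals.
Wfdc3, chr2:164743218-164743517, - strand: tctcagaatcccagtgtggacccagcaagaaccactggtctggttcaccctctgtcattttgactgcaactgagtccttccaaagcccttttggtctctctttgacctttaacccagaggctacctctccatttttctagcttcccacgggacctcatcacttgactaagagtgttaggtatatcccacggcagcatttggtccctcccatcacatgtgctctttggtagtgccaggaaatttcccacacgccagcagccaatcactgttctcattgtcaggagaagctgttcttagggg
Wfdc2, chr2:164562465-164562764, + strand: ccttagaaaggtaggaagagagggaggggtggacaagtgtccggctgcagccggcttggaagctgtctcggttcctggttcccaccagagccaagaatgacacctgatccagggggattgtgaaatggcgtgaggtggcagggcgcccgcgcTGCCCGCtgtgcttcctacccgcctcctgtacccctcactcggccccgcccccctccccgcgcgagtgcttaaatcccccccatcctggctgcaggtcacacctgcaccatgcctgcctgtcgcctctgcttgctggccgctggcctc
Mt1, chr8:94178839-94179138, + strand: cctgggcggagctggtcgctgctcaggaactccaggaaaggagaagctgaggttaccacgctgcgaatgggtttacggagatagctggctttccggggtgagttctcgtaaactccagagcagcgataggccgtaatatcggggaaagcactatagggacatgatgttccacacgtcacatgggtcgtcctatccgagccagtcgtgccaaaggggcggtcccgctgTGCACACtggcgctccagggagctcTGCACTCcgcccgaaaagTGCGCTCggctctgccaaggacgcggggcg
A match describes letters in these windows and was not tested for binding. The Wfdc3 and Aldh3b1 windows lie inside the gene coordinates above. They do not reach the upstream end of those coordinates, which was not searched. Cxcl17, Smoc2 and Igfbp3 are named without a window.

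Cxcl17 had the largest fitted change of the 5. It read 2.26, 2.03, 2.28, 1.55 and 2.11 at 100 ppm, 1.81, 2.19, 2.06 and 2.23 at 500 ppm, and 3.13, 2.76, 2.90 and 2.71 at 2000 ppm. The 2000 ppm arrays did not overlap the lower groups, and the fitted change over the range was 0.87 ± 0.13 (adjusted p = 0.0263). They also lay above all 14 air arrays, which spanned 1.55 to 2.43 (median 1.97), with a difference of 0.82 ± 0.17 and adjusted p-values of 0.111, 0.0123 and 0.0419 against ACO3, ACO4 and ACO5, so that the rule of all 3 air sets was not met. Values at 3000 and 4000 ppm (2.74 to 3.01 and 2.81 to 3.06) differed from 2000 ppm by 0.064 ± 0.19 (adjusted p = 0.886, 95% interval -0.30 to 0.43).

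Mt1 showed a smaller step. Its values were 2.66, 2.61, 2.85, 2.67 and 2.68 at 100 ppm, 2.80, 3.00, 2.65 and 2.87 at 500 ppm, and 3.33, 3.09, 3.24 and 3.04 at 2000 ppm, with a fitted change of 0.47 ± 0.071 (adjusted p = 0.0263). Every array at 2000 ppm exceeded those at 100 and 500 ppm and the 14 air arrays, which spanned 2.34 to 2.85 (median 2.61). Against air the difference was 0.56 ± 0.16, with adjusted p-values of 0.203, 0.0307 and 0.185 against ACO3, ACO4 and ACO5. The brightest probe set, used here, carries a suffix of the array design for sequence shared between transcripts, and a second probe set of Mt1 was dim and averaged -0.44 at 2000 ppm and -0.46 at 100 ppm.

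Wfdc2 and Aldh3b1 also passed upward in the linear fit, and their 2000 ppm arrays stood within the range of air. Wfdc2, abundant in airway epithelium, measured 5.12, 5.02, 5.09, 5.01 and 4.95 at 100 ppm, 5.05, 5.11, 5.03 and 5.04 at 500 ppm, and 5.42, 5.32, 5.33 and 5.28 at 2000 ppm (fitted change 0.31 ± 0.043, adjusted p = 0.0263). The 2000 ppm arrays did not overlap the lower groups, but the air arrays spanned 4.97 to 5.95 (median 5.30) and the difference of 2000 ppm from air was 0.016 ± 0.10. Aldh3b1 measured 1.30, 1.28, 1.36, 1.16 and 1.38 at 100 ppm, 1.33, 1.24, 1.36 and 1.46 at 500 ppm, and 1.64, 1.54, 1.67 and 1.56 at 2000 ppm (fitted change 0.31 ± 0.051, adjusted p = 0.0477). Its air arrays spanned 1.23 to 1.89 (median 1.54), and 2000 ppm differed from air by 0.062 ± 0.083. Relative to air, Wfdc2 stood at -0.28 at 100 ppm and -0.27 at 500 ppm, and Aldh3b1 at -0.25 and -0.19.

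The trend calls were fragile. On log10 concentration 0 genes passed, with adjusted p-values of 0.319 to 0.34 for these 5 genes, and the trend contrast in the fit of all arrays of the study called Wfdc3 alone (adjusted p = 7.4e-08). Leaving out 1 array gave 0 called genes for MECL-100 replicates 2, 4 and 5, MECL-500 replicate 3 and MECL-2000 replicates 2 and 3, 2 for MECL-500 replicate 2 and MECL-2000 replicates 1 and 4, 8 for MECL-500 replicate 4 and 21 for MECL-100 replicate 3, and the fitted changes stayed positive for all 5 genes.

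**Figure D1:**
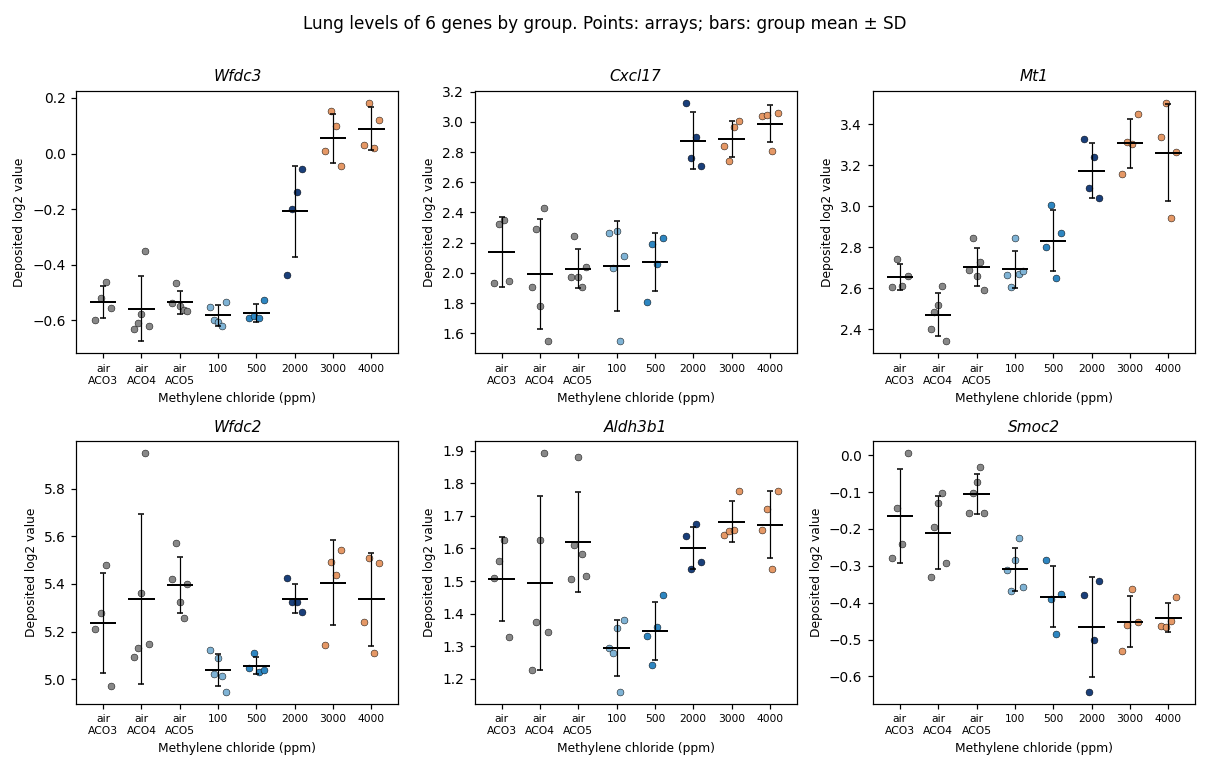
Log2 values of Wfdc3, Cxcl17, Mt1, Wfdc2, Aldh3b1 and Smoc2 in each array, by air set and by concentration in ppm, with group means and SDs as bars. The 4 arrays at 2000 ppm lie above the 9 arrays at 100 and 500 ppm in the first 5 panels, and above every air array for Cxcl17 and Mt1, while Smoc2 is lower at 2000 ppm than in all 14 air arrays.

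A further pair of genes were singled out after their values were seen, since they ranked next in the same comparison. Gp2, a glycoprotein of secretory granules and of the antigen-sampling cells over lymphoid tissue, measured -0.71, -0.81, -0.83, -0.98 and -0.98 at 100 ppm, -0.99, -0.84, -0.81 and -0.91 at 500 ppm, and -0.055, -0.38, -0.53 and -0.57 at 2000 ppm (fitted change 0.51 ± 0.091, adjusted p = 0.0608). All 4 arrays at 2000 ppm lay above the lower groups and above the air arrays, which spanned -1.24 to -0.68 (median -0.85). Igfbp3, a carrier of insulin-like growth factors, ran the other way, with 1.29, 1.72, 1.47, 1.52 and 1.77 at 100 ppm, 1.50, 1.24, 1.27 and 1.73 at 500 ppm, and 1.02, 0.99, 1.10 and 0.90 at 2000 ppm (fitted change -0.55 ± 0.099, adjusted p = 0.0608). Its 2000 ppm arrays lay below all lower groups and below the air arrays, which spanned 1.19 to 1.72 (median 1.54), and it was lower again at 3000 ppm (0.44 to 0.78) and 4000 ppm (0.40 to 0.68). A second probe set of Igfbp3 averaged 0.75 at 2000 ppm and 1.35 at 100 ppm. Neither passed the trend test. Set against the mean of 100 and 500 ppm in the fit of 17 arrays, 2000 ppm was higher in Cxcl17 (adjusted p = 0.0219), Wfdc3 (0.0236), Gp2 (0.0377) and Mt1 (0.0485), the 4 genes called there, and Igfbp3 did not pass (0.0851).

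Between 500 and 100 ppm no gene passed the test (0%, limma), and 50 of 13524 genes had an unadjusted p under 0.05. That is below the share of 0.05 that chance alone would give, in a test that uses the spread of all arrays of the study. The low count is therefore not evidence of no difference. The interval for Cxcl17 was -0.38 to 0.43 around 0.027, and for Mt1 -0.23 to 0.51 around 0.14, so the 4 and 5 arrays leave room for differences of either sign.

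The second question was how each concentration differed from air. Genes that passed in the same direction against each of the 3 air sets numbered 20 at 100 ppm (0.148% of 13524, 2 higher, 0.0148%, and 18 lower, 0.133%), 0 at 500 ppm (0%) and 2 at 2000 ppm (0.0148%, Wfdc3 higher and Smoc2 lower). Against the equal-weight mean of the air sets the counts were 3056 (22.6%, of which 7.25% higher and 15.3% lower), 1977 (14.6%, 5.09% and 9.52%) and 899 (6.65%, 3.93% and 2.72%). At an unadjusted p under 0.05 against that mean there were 5113, 4463 and 3674 genes. By the rule of all 3 air sets, the counts at 100, 500 and 2000 ppm were 760, 433 and 186 after quantile normalization and 1091, 275 and 167 in a fit of the methylene chloride and ACO arrays alone. The 3 comparisons share their air arrays and cross the sets of array means.

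Smoc2, a secreted calcium-binding protein of the extracellular matrix, was the gene that fell at 2000 ppm. Its values there were -0.38, -0.64, -0.50 and -0.34, against -0.33 to 0.0065 (median -0.15) in the 14 air arrays, a difference of -0.31 ± 0.054 with adjusted p-values of 0.0234, 0.0234 and 0.000654 against ACO3, ACO4 and ACO5. All 4 arrays lay below every air array. At 100 ppm it read -0.31, -0.37, -0.29, -0.22 and -0.36 and at 500 ppm -0.28, -0.39, -0.48 and -0.38, which overlap the 2000 ppm values, and the difference of 2000 from 100 ppm was -0.16 ± 0.064 (95% interval -0.28 to -0.029, adjusted p = 1). A dimmer second probe set averaged -0.84 at 2000 ppm and -0.63 in air. The call was lost (adjusted p up to 0.218) without MECL-2000 replicate 2 or 3, ACO3 replicate 2 or 4, or ACO4 replicate 3 or 4, and with both ACO4 arrays left out the difference was -0.29 (adjusted p = 0.317).

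The genes with the next smallest adjusted p against the mean of the air sets did not pass against all 3 sets. Ak7, an adenylate kinase of motile cilia, read 2.32, 2.04, 2.17 and 1.71 at 2000 ppm against 0.79 to 1.86 (median 1.30) in air (difference 0.77 ± 0.15, adjusted p = 0.0268, 0.00312 and 0.107 against ACO3, ACO4 and ACO5). Nek5 (0.38 ± 0.072), Zfp84 (0.47 ± 0.093) and Gigyf2 (0.30 ± 0.058) were also higher in all 4 arrays than the air mean. Among those lower, Asgr1 (-0.64 ± 0.12) and Afp (-0.64 ± 0.14) are genes known from liver, and Chdh (-0.27 ± 0.052), choline dehydrogenase, and Cdk2ap2 (-0.50 ± 0.11) complete the list. The mean level of 14 liver transcripts, a list made after the data were seen, was -0.38 to 0.99 at 2000 ppm and -1.23 to 3.04 in air, and its part in these differences was not tested. Without ACO5 replicate 3 the count at 2000 ppm was 7, and it was 1 without ACO3 replicate 2, ACO4 replicate 3 or 4, or MECL-2000 replicate 2 or 3.

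At 100 ppm 18 genes fell, by 0.20 to 0.63. Qdpr, which recycles tetrahydrobiopterin, read 2.48, 2.30, 2.78, 2.62 and 2.46 at 100 ppm against 2.76 to 4.01 (median 3.05) in air (-0.63 ± 0.12, adjusted p = 0.0343, 0.00791 and 0.0288 against ACO3, ACO4 and ACO5). A dimmer probe set of Qdpr averaged 1.94 at 100 ppm and 2.27 in air, where it spanned 1.89 to 3.03. Hebp1, a heme-binding protein, read 1.22, 1.14, 1.54, 1.51 and 1.14 against 1.55 to 2.52 (median 1.78) in air (-0.53 ± 0.099, adjusted p = 0.025, 0.00572 and 0.0338), with all 5 arrays below the 14 air arrays. Psap, the precursor of the lysosomal saposins, fell by 0.41, Tmed9, a cargo receptor between endoplasmic reticulum and Golgi, by 0.51, Bloc1s4 of lysosome-related organelles by 0.63, and Mul1, a mitochondrial ubiquitin ligase, by 0.38. Fmc1 (-0.40), Mpdu1 (-0.35), Tmem242 (-0.47) and Cdk2ap2 (-0.48) complete the 10 largest falls among genes with an official symbol, with all 5 arrays below every air array for Mpdu1, Tmem242 and Cdk2ap2. Named after their values were seen, Wrap73, Bckdha, Trmt61b, Chdh, Ddx28 and Acaa1a were called at -0.35 to -0.20, and the 2 others have no official symbol.

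Hs3st2, a heparan sulfate sulfotransferase, was the named gene that rose at 100 ppm, with 0.37, 0.18, 0.41, 0.44 and 0.41 against -0.053 to 0.33 (median 0.19) in air (0.19 ± 0.042, adjusted p = 0.025, 0.0416 and 0.0453 against ACO3, ACO4 and ACO5). Its other 2 probe sets averaged -0.57 and -1.08 at 100 ppm against -0.61 and -1.12 in air. Next by adjusted p were Tmtc3 (0.56 ± 0.12), Zc3h13 (0.32 ± 0.066), Tmlhe (0.29 ± 0.059) and Gigyf2 (0.28 ± 0.054), none of which passed. The 20 calls depended on single arrays: 49 genes passed without ACO3 replicate 4, the air array with the highest heart muscle and adipose levels, 6 to 12 without ACO3 replicate 2, ACO4 replicate 3 or 4, or ACO5 replicate 1, 4 or 5, 3 without ACO3 replicate 1, 2 without MECL-100 replicate 1, 1 without ACO3 replicate 3, ACO5 replicate 2 or MECL-100 replicate 4, and 0 without MECL-100 replicate 2 or 5. With ACO4 replicates 3 and 4 both left out, none passed.

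At 500 ppm no gene met the rule, and the genes with the smallest adjusted p against the mean of the air sets are given as values. Foxm1, a transcription factor of dividing cells, read -0.22, -0.21, -0.28 and -0.21 at 500 ppm against -0.60 to -0.31 (median -0.44) in air (0.22 ± 0.043, adjusted p = 0.0454, 0.00195 and 0.0591 against ACO3, ACO4 and ACO5). Srcin1 (0.25 ± 0.044), Tnfrsf22 (0.23 ± 0.043), Wbp2nl (0.26 ± 0.051) and Hs3st2 (0.24 ± 0.046) were the others above air. Atp5md of the mitochondrial ATP synthase (-0.36 ± 0.075), the glutathione transferase Gsto2 (-0.25 ± 0.053), Mul1 (-0.42 ± 0.082), Chdh (-0.25 ± 0.052) and Trmt61b (-0.30 ± 0.058) were those below it. Without ACO4 replicate 1 or 4 or ACO5 replicate 3 or 4, 4, 5, 6 and 3 genes passed.

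The same genes at the 3 concentrations, side by side against shared air arrays, gave these differences. Qdpr differed from air by -0.63, -0.54 and -0.50 at 100, 500 and 2000 ppm, and Hebp1 by -0.53, -0.50 and -0.43. ND5, a mitochondrially encoded subunit of respiratory complex I, and Cast, the calpain inhibitor calpastatin, were chosen after their values were seen as genes far above air. Neither was called at any of the 3 concentrations. ND5 differed by 1.14, 0.97 and 1.14, and all 13 exposed arrays (3.48 to 4.12) lay above the 14 air arrays, which spanned 1.57 to 3.40 (median 2.78). Cast differed by 1.10, 0.90 and 1.01. At 3000 ppm ND5 read 3.01 to 3.67 and at 4000 ppm, in arrays with the array mean of ACO4, 2.49 to 3.17. ND5 did not pass against all 3 air sets (adjusted p = 0.0558, 0.122 and 0.123 at their largest), and the part of the array sets and of RNA quality in it was not tested.

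**Figure D2:**
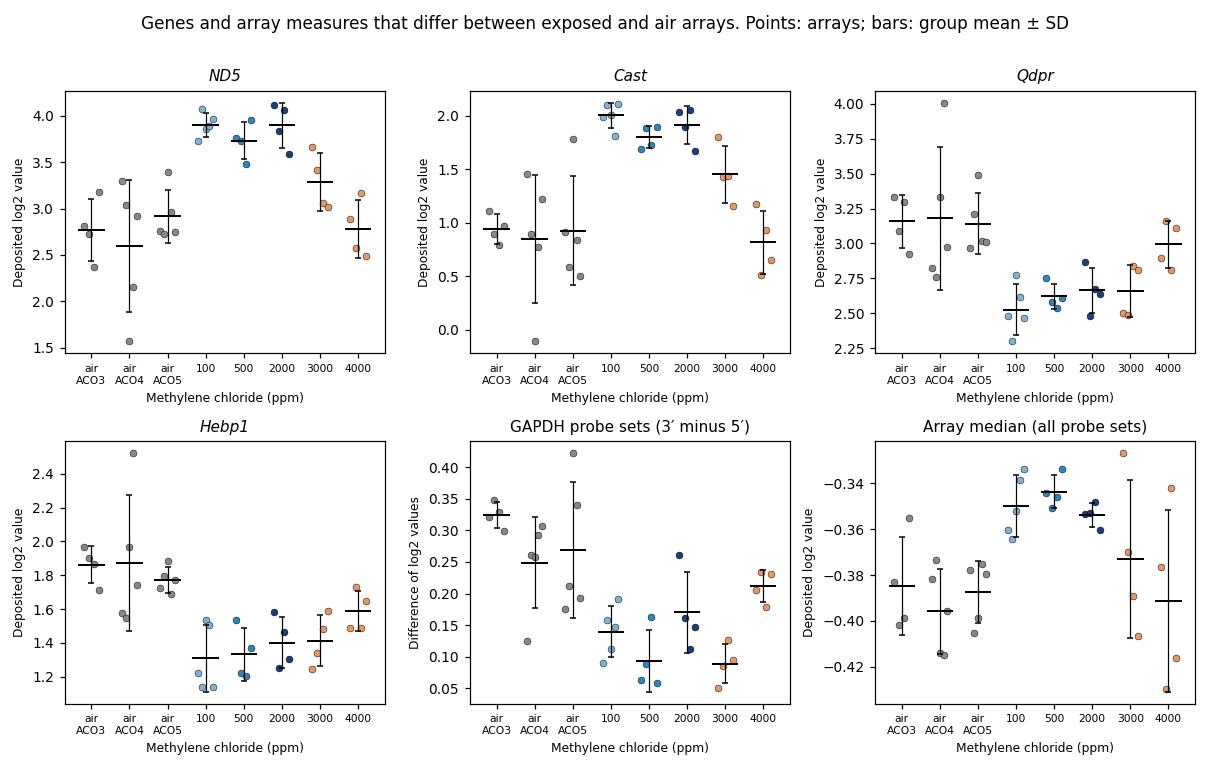
Log2 values of ND5, Cast, Qdpr and Hebp1, the 3′ minus 5′ difference of Gapdh and the array median, for each array by air set and concentration in ppm, with group means and SDs. ND5 is higher and the Gapdh difference mostly lower at 100 to 2000 ppm than in air, with no order by concentration, and the 4000 ppm arrays lie near the air arrays for ND5 and Cast.

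Gene groups were then read against all genes tested, whose median difference from air was -0.039, -0.038 and -0.025 at 100, 500 and 2000 ppm. Apart from Wfdc3 and Smoc2, no member of any list was called against each of the 3 air sets. Enzymes that handle methylene chloride did not pass that rule. Gstt1, the theta-class transferase that acts on the solvent, read 2.78, 2.81, 3.05, 2.99 and 2.78 at 100 ppm, 3.02, 2.85, 2.86 and 2.80 at 500 ppm and 3.04, 2.87, 3.08 and 3.03 at 2000 ppm. At 2000 ppm it spanned 2.87 to 3.08, against 2.88 to 3.82 (median 3.25) in the 14 air arrays. The groups overlapped, and the differences from air were -0.38 ± 0.12, -0.38 ± 0.13 and -0.26 ± 0.13. Gstt2 (-0.28, -0.30 and -0.22) and Gstt3 (-0.20, -0.29 and -0.18) stood likewise. Adh5, which oxidises the glutathione adduct of formaldehyde, differed by -0.41, -0.45 and -0.18, and Aldh2, the mitochondrial aldehyde dehydrogenase, by -0.29, -0.33 and -0.20. Of the 9 tested members of this list, 4, 5 and 0 were lower by the mean-of-air rule at 100, 500 and 2000 ppm, where 15.3%, 9.52% and 2.72% of all genes were. Within the exposed arrays no member passed, and all 9 were higher at 2000 than at 100 ppm (median 0.098, against 0.020 over all genes).

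Cyp2e1, the oxidising P450, spread widely within every group. Its values were 0.82, 0.39, 1.62, 1.66 and 0.39 at 100 ppm, 0.91, 0.72, 0.39 and 1.30 at 500 ppm and 2.04, 0.67, 1.54 and 0.98 at 2000 ppm. Its 2000 ppm values ran at 0.67 to 2.04, against 0.063 to 4.07 (median 1.28) in the 14 air arrays. The mean of those liver transcripts was -0.61 to 0.99 in the 13 exposed arrays, against 3.04 in ACO4 replicate 4, which held the highest air value of Cyp2e1, 1.73 in ACO4 replicate 3 and 1.54 in ACO3 replicate 1. In bulk tissue, fewer cells of a type and less RNA per cell cannot be told apart. Heart muscle and adipose lists lay at 0.48 to 1.91 and 0.61 to 1.73 in the exposed arrays and were highest in ACO3 replicate 4, at 2.49 and 2.97. Between 2000 and 100 ppm, 14 of 14 liver transcripts and 16 of 17 heart muscle genes were higher (medians 0.31 and 0.19), with MECL-2000 replicate 1 the highest of the 13 in both, and their part in the list medians was not tested.

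**Figure D3:**
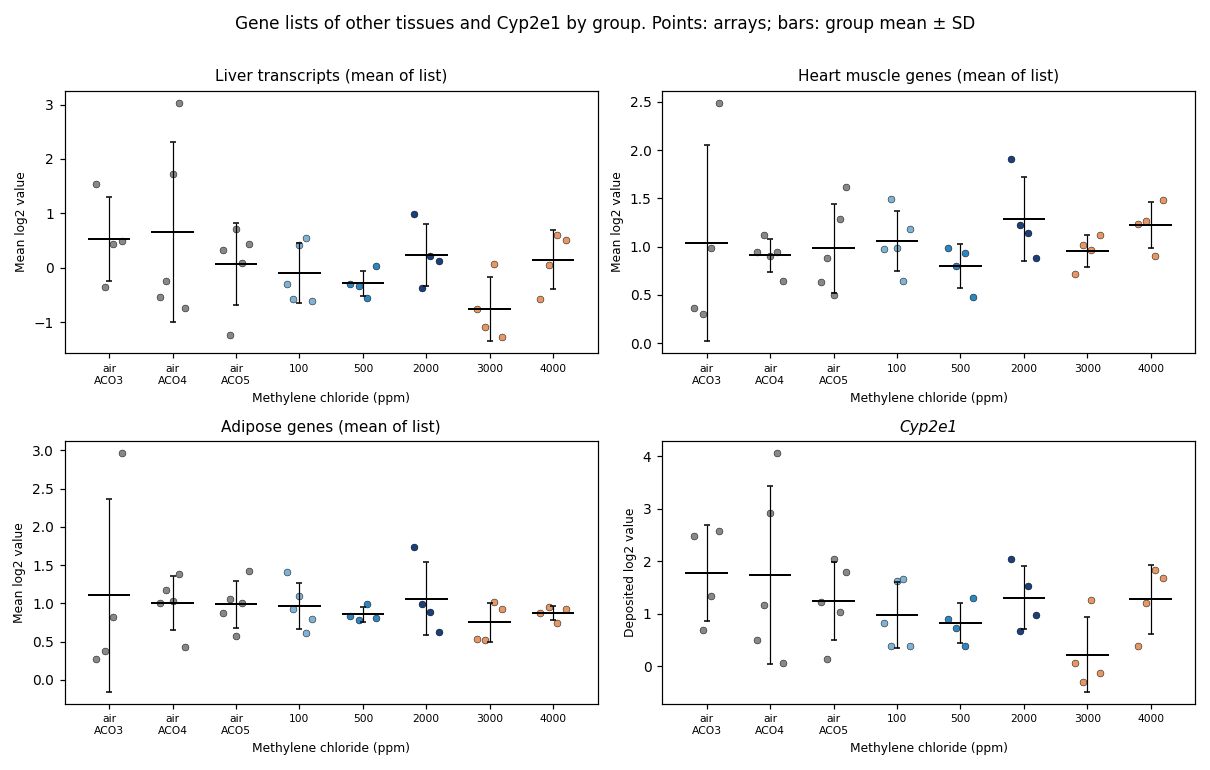
Mean log2 level of the liver, heart muscle and adipose lists and the log2 value of Cyp2e1, for each array by air set and concentration in ppm, with group means and SDs. ACO4 replicates 3 and 4 and ACO3 replicate 1 stand above the exposed arrays in the liver list and in Cyp2e1, ACO3 replicate 4 in the heart muscle and adipose lists, and the 13 exposed arrays lie within the air range.

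Genes of heme and hypoxia, which bear on carbon monoxide, showed no change below 3000 ppm called by the rule of all 3 air sets or between concentrations. Alas1, the first enzyme of heme synthesis, read 3.65, 3.66, 3.89, 3.65 and 3.71 at 100 ppm, 3.75, 3.96, 3.74 and 4.06 at 500 ppm and 3.84, 4.23, 4.03 and 4.22 at 2000 ppm, a fitted change of 0.34 ± 0.085 (adjusted p = 0.238). Its range at 2000 ppm was 3.84 to 4.23, against 3.56 to 3.99 (median 3.76) in the 14 air arrays. 3 of its 4 values at 2000 ppm lay above all air arrays. Alas2, the erythroid form, differed by 0.02 ± 0.24 between 2000 and 100 ppm, and Hmox1, the inducible heme oxygenase, by -0.12 ± 0.14. Of the 15 tested heme genes 13 were higher at 2000 than at 100 ppm with a median of 0.056, none called. Their median differences from air were -0.18, -0.12 and -0.15 at 100, 500 and 2000 ppm. By the mean-of-air rule 5, 3 and 0 of them and 4, 2 and 0 of 21 hypoxia genes were lower. Of all genes 15.3%, 9.52% and 2.72% were lower by that rule. The hypoxia list had 0 of 21 called in each comparison with air and a median of 0.063 for 2000 against 100 ppm, and Vegfa, the vascular growth factor, read 2.95 to 3.16 at 2000 ppm against 2.50 to 3.31 in air.

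Of all 13524 genes, 8541 were higher at 2000 than at 100 ppm, with a median difference of 0.020, and the lists are read against that. Of 20 club cell genes 17 were higher at 2000 than at 100 ppm (median 0.17), and 1 was called in the direct comparison (Wfdc3, against 0.00739% of all genes) and 2 in the trend (Wfdc3 and Cxcl17, against 0.037%). The list was made with earlier results of these data known, so these counts are not independent evidence about club cells. Scgb1a1 and Cyp2f2, the main secretoglobin and P450 of club cells, differed by -0.024 ± 0.099 and 0.051 ± 0.098. All 16 ciliated cell genes were higher at 2000 than at 100 ppm (median 0.18, against 0.00073 for 500 against 100 ppm), none of them called. Foxj1, the master regulator of motile cilia, read 1.22, 1.21, 1.73, 1.20 and 1.33 at 100 ppm, 0.95, 1.30, 1.12 and 1.61 at 500 ppm and 1.48, 1.71, 1.42 and 1.51 at 2000 ppm. At 2000 ppm it spanned 1.42 to 1.71, against 0.99 to 1.53 (median 1.35) in the 14 air arrays, and the groups overlapped. Against air, 9, 8 and 13 of the 16 were higher at 100, 500 and 2000 ppm (medians 0.016, 0.0043 and 0.21). By the mean-of-air rule 3, 2 and 6 were higher, where 7.25%, 5.09% and 3.93% of all genes were. Lower were 2, 2 and 1, where 15.3%, 9.52% and 2.72% of all genes were. Single members differed: Cfap43 stood at 0.45, 0.44 and 0.66 and Ccdc39 at 0.34, 0.38 and 0.58. Tppp3, named after its values were seen like Cfap43, stood at -0.49, -0.47 and -0.47. The mean ciliated level spanned 0.86 to 1.18 at 2000 ppm and 0.70 to 1.17 in air.

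Alveolar, vascular and immune lists held no called gene in any of the comparisons among 100, 500 and 2000 ppm. Medians for 2000 against 100 ppm were -0.011 for 13 alveolar type 1 genes, 0.01 for 15 alveolar type 2 genes, 0.016 for 18 endothelial genes and 0.089 for 15 macrophage genes. Of 19 respiratory chain genes, 12, 8 and 2 were called lower by the mean-of-air rule at 100, 500 and 2000 ppm, where 15.3%, 9.52% and 2.72% of all genes were (medians of the list -0.31, -0.30 and -0.19), and all 19 were higher at 2000 than at 100 ppm (median 0.13), none called. The matrix and smooth muscle list, which holds Smoc2, had 8 of 29 higher (median -0.091).

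Apart from Mt1, stress and proliferation lists held no called gene between the concentrations. The NRF2 and glutathione list had 26 of 33 genes higher at 2000 than at 100 ppm (median 0.079), none called, and Nqo1, a common NRF2 target, read -0.32, -0.45, -0.32 and -0.28 at 2000 ppm against -0.44 to 0.056 (median -0.29) in air. Of 17 p53 targets 16 were higher (median 0.095), and Cdkn1a, the cell cycle inhibitor among them, differed by 0.28 ± 0.24. All 13 heat shock genes were higher (median 0.21), again with none called. The glucocorticoid list, which holds Mt1, had 13 of 15 higher (median 0.16), with Mt1 its 1 call in the trend. Of 23 cell cycle genes 8 were higher (median -0.017). Mki67, a marker of dividing cells, read -0.073, -0.031, -0.29, 0.62 and 0.082 at 100 ppm, 0.32, 0.044, -0.053 and -0.00039 at 500 ppm and 0.066, -0.15, -0.06 and -0.29 at 2000 ppm. Its 2000 ppm values ran at -0.29 to 0.066, against -0.70 to -0.16 (median -0.50) in the 14 air arrays. Its differences from air were 0.54 ± 0.12, 0.56 ± 0.13 and 0.37 ± 0.13, none of which passed against all 3 air sets, and Top2a, a topoisomerase of dividing cells, differed by 0.34, 0.29 and 0.19. Cyp1a1, the P450 induced through the aryl hydrocarbon receptor, read 0.26 to 0.90 at 2000 ppm against 0.10 to 1.76 in air.

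**Figure D4:**
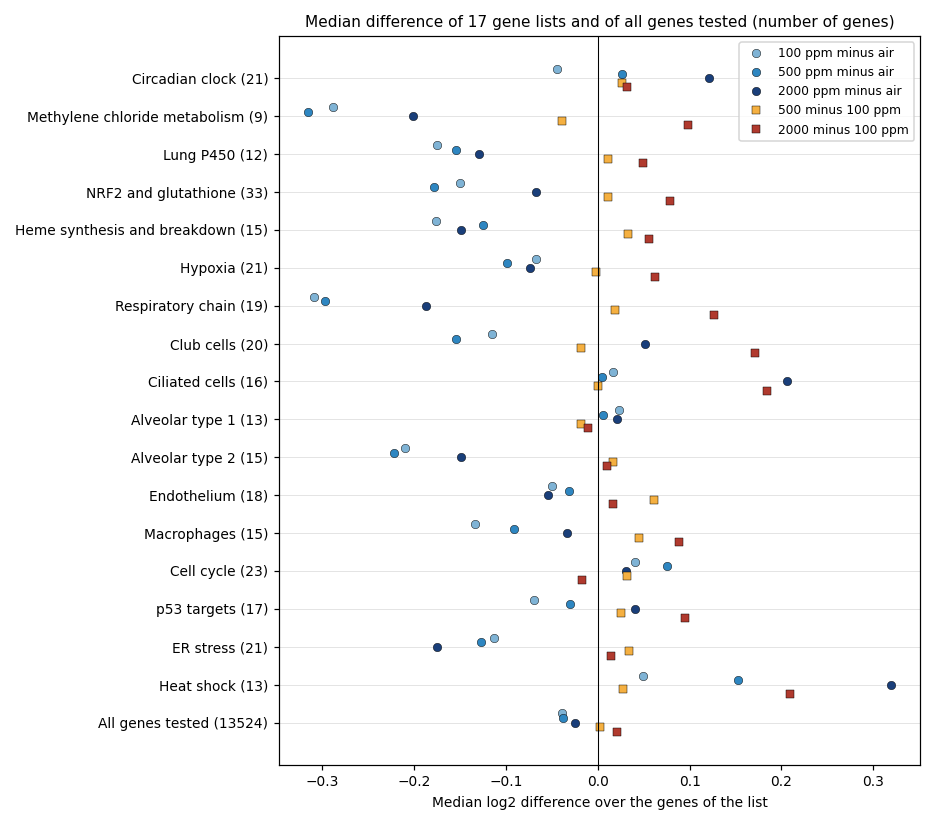
Median log2 difference over the genes of 17 lists and over all 13524 genes, for 100, 500 and 2000 ppm minus air (circles) and for 500 and 2000 minus 100 ppm (squares). The 500 minus 100 ppm medians lie near 0, the 2000 minus 100 ppm medians of the club (0.17), ciliated (0.18) and heat shock (0.21) lists are the farthest from 0 among the lists drawn, and among these the medians against air are lowest for methylene chloride metabolism and the respiratory chain. The liver, heart muscle and mesothelium lists are not drawn and had medians of 0.31, 0.19 and -0.22 for 2000 minus 100 ppm.

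Circadian clock genes separated the 3000 and 4000 ppm arrays from the rest, and the 4 arrays at 2000 ppm differed among themselves. In the clock, Arntl partners with Clock or Npas2 to switch on the Per and Nr1d repressors and the output factor Dbp, which peak in antiphase to Arntl. Dbp read -0.38, -0.33, -0.51, -0.46 and -0.52 at 100 ppm, 0.57, -0.11, 0.16 and -0.50 at 500 ppm, 0.079, 0.97, -0.45 and 1.12 at 2000 ppm, 2.65, 3.06, 2.77 and 3.32 at 3000 ppm and 3.66, 4.11, 3.46 and 3.50 at 4000 ppm. Its range at 2000 ppm was -0.45 to 1.12, against -0.35 to 0.74 (median -0.13) in the 14 air arrays. Arntl read 0.85, 0.75, 0.95, 0.66 and 0.78 at 100 ppm, 0.52, 0.61, 0.55 and 0.86 at 500 ppm, 0.90, 0.25, 0.89 and 0.40 at 2000 ppm, -0.21, -0.75, -0.24 and -0.23 at 3000 ppm and -0.62, -0.65, -0.66 and -0.39 at 4000 ppm. At 2000 ppm it spanned 0.25 to 0.90, against 0.87 to 1.17 (median 1.00) in the 14 air arrays. All arrays at 500 ppm also lay below the air arrays, and so did all at 100 ppm but the highest, 0.95. At 2000 ppm, replicates 2 and 4 had high Dbp with low Arntl, and replicates 1 and 3 had lower Dbp with higher Arntl.

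No clock gene was called at 100, 500 or 2000 ppm by the rule of all 3 air sets, or between these concentrations. By the mean-of-air rule 2, 2 and 1 of the 21 were higher, where 7.25%, 5.09% and 3.93% of all genes were. Lower were 0, 2 and 0, where 15.3%, 9.52% and 2.72% of all genes were. Dbp at 2000 ppm differed from air by 0.36 ± 0.34 (95% interval -0.30 to 1.03) and from 100 ppm by 0.87 ± 0.40 (adjusted p = 1). Arntl at 2000 ppm differed from air by -0.40 ± 0.15 (adjusted p = 0.248, 0.171 and 0.208 against ACO3, ACO4 and ACO5). Nr1d1, a repressor of Arntl, read 1.09, 1.66, 0.43 and 1.59 at 2000 ppm, against 0.52 to 1.25 (median 0.91) in air. Per3 read 0.34, 0.82, 0.15 and 0.93 at 2000 ppm, against 0.053 to 0.75 (median 0.19) in air, with the highest values again in replicates 2 and 4. Rora, an activator of Arntl, differed from air by 0.44, 0.46 and 0.45 at 100, 500 and 2000 ppm and by 0.016 between 2000 and 100 ppm. Over the 21 clock genes tested the median for 2000 against 100 ppm was 0.032.

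Above 2000 ppm more genes were called. The mean of 3000 and 4000 ppm differed from 2000 ppm in 233 genes (1.72%, limma), 66 higher and 167 lower. Of the clock list 12 of 21 genes rose and 3 fell, against 0.488% and 1.23% of all genes. The smallest adjusted p-values among the rises belonged to the tetraspanin Tspan4 (1.24 ± 0.14, adjusted p = 2.01e-10), Hlf (0.84 ± 0.10) and Dbp (2.89 ± 0.36), both output factors of the clock, Per3 (1.04 ± 0.15) and the RNA-binding protein Cpeb1 (0.41 ± 0.061). Among the falls they belonged to Arntl (-1.08 ± 0.16, adjusted p = 5.47e-07), the synuclein Sncb (-0.29 ± 0.048), Zfp712 (-0.33 ± 0.062), Npas2 (-0.69 ± 0.13) and Gprin3 (-0.55 ± 0.11). In all of these genes the 8 arrays at 3000 and 4000 ppm lay beyond the 4 arrays at 2000 ppm. The genes were picked by this same comparison, so that separation is not added evidence.

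Some other lists had 1 or 2 calls in that step, where 0.488% of all genes rose and 1.23% fell. Alad (0.47, of 15 heme genes), the club cell genes Wfdc3 and Upk3a (0.45, of 20) and the replication factor Mcm3 (0.27, of 23) rose. Adm, the hypoxia-responsive adrenomedullin (-0.59, of 21), the ciliary Ccdc39 (-0.67, of 16) and elastin (Eln, -0.85, of 29) fell. So did the stress genes Nupr1 (-0.53) and Pdia4 (-0.34), of 21. Calls of 1 or 2 genes say little about lists of this size. Over 12 fits that each left out 1 array, the call was lost in 8 for Alad and Pdia4, 6 for Mcm3 and 4 for Nupr1. It was lost in 2 for Adm and Ccdc39, 1 for Eln and Wfdc3 and 0 for Upk3a. Since the 4000 ppm arrays have another array mean, 3000 ppm alone was also set against 2000 ppm, within arrays of 1 mean, and 17 genes passed (164 in the fit of 17 arrays), Dbp (2.52, adjusted p = 0.000208) and Arntl (-0.97, adjusted p = 0.00105) among them. The count of 233 fell to 34, 66 and 39 without MECL-2000 replicate 1, 2 or 3, and was 151, 102, 75 and 107 without MECL-3000 replicate 2 or 4 or MECL-4000 replicate 2 or 4.

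**Figure D5:**
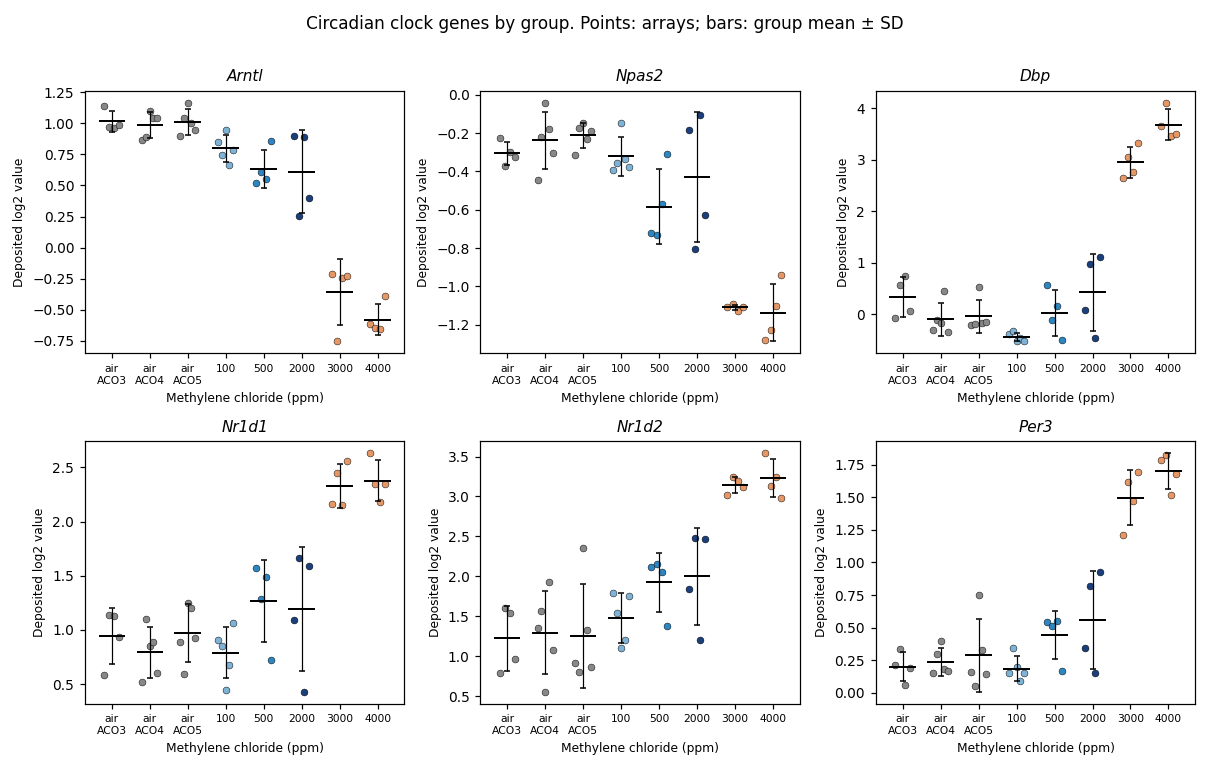
Log2 values of Arntl, Npas2, Dbp, Nr1d1, Nr1d2 and Per3 in each array, by air set and concentration in ppm, with group means and SDs. Dbp lies at 2.65 or above at 3000 and 4000 ppm and at 1.12 or below in every array at 100 to 2000 ppm, and the 4 arrays at 2000 ppm split into a high and a low pair.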

How the data were processed

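Lung RNA of single mice was measured on 1-colour arrays with 45101 probe sets. The values are log2 intensities as deposited by the authors in 1 table for the series. The base is taken as 2 from their range, and the background correction and normalization are not given in the sources used here. Of the probe sets, 34958 carry 1 gene symbol in the platform annotation, 932 several and 9211 none, and the brightest single-symbol probe set stood for each of 18194 genes. A gene was tested if at least 3 arrays exceeded the median of all values, which left 13524.

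A group-means model over all arrays of the study was fitted with limma 3.58.1 in R 4.3.3, and p-values were adjusted by the Benjamini-Hochberg method over all tested genes, called at 0.05. A gene was called against air where it passed in the same direction against each of ACO3, ACO4 and ACO5, and its difference is against the equal-weight mean of these sets. The trend used linear concentration in the 13 exposed arrays alone and is given as the fitted change over the range tested. Array measures were compared by two-sided permutation tests with 100000 resamples. The scripts were tested on simulated data. Promoter windows and gene coordinates are from RefSeq tables of GRCm38.p6. The number of arrays limits the precision.

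Named genes are the 10 largest called rises and falls against air by concentration, filled to 5 by adjusted p where fewer were called, the 5 smallest adjusted p in each direction for the other comparisons, and fixed genes: Wfdc3, Smoc2, members of the clock, metabolism and heme lists and common markers. The members, genes and lists were chosen with earlier results of these data known, so Wfdc3 and Smoc2 are not independent evidence of their direction. Alternatives covered normalization, filter, probe sets, arrays in the fit, air sets, concentration scale and each array left out.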

Additional observations from a re-analysis of the deposited data

Results flagged for a closer look

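Within groups of 4 or 5 arrays, a lone array was looked for whose gap to its nearest neighbour exceeded Dixon's critical share of the group's range. Of 246 groups examined, 21 had one, where chance gives about 12.3. At 100 ppm the highest array stood apart for Alas1 (3.89, next 3.71), Asgr1 (0.22, next -0.13), Fmc1 (1.08, next 0.91), Foxj1 (1.73, next 1.33), Foxm1 (-0.21, next -0.29), Mcm3 (0.25, next -0.071) and Npas2 (-0.14, next -0.34), and the lowest for Hs3st2 (0.18, next 0.37). At 500 ppm the highest stood apart for Adm (0.51, next 0.40), Mcm3 (0.21, next -0.073) and Wfdc3 (-0.52, next -0.58), and the lowest for Foxm1 (-0.28, next -0.22), Nr1d2 (1.37, next 2.06), Per3 (0.16, next 0.51) and Upk3a (-0.51, next -0.43). At 2000 ppm the highest stood apart for Chdh (-0.63, next -0.79) and Zfp84 (0.93, next 0.50).

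The 3′ minus 5′ difference of Actb had a lone low array at 500 ppm (0.42, next 0.48) and lone high arrays in ACO4 (0.98, next 0.66) and ACO5 (0.89, next 0.61), and that of Gapdh a lone low array in ACO4 (0.13, next 0.26).

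Wfdc3 differed between concentrations in direct tests, by 0.37 for 2000 against 100 ppm and by 0.36 for 2000 against 500 ppm. It was chosen with earlier results of these data known, so this is not independent evidence. Its second probe set averaged -0.53 at 2000 ppm and -0.49 at 100 ppm. With probe sets averaged, or in the fit of 17 arrays, it was not called in either comparison.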

How the results depend on the processing

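Called genes at 100, 500 and 2000 ppm against air numbered 760, 433 and 186 after quantile normalization, 9, 0 and 2 without the filter, 10, 5 and 2 with probe sets averaged, 1091, 275 and 167 in a fit of the methylene chloride and ACO arrays alone, 3056, 1977 and 899 against the mean of the air sets, 57, 60 and 35 against ACO3, 1723, 992 and 290 against ACO4, 375, 2 and 24 against ACO5, 267, 2 and 17 against the air sets labelled in ppm, and 3, 0 and 2 without the air array of an RNA integrity number under 7. Chosen after seeing the data, leaving out ACO4 replicates 3 and 4 gave 0, 5 and 1. For 2000 against 100 and against 500 ppm there were 2 and 2 calls after quantile normalization, 0 and 0 with probe sets averaged, and 6 and 1 in the methylene chloride and ACO fit. The fit of 17 arrays, also chosen after seeing the data, gave 0 and 0, and 4 against the mean of 100 and 500 ppm. For 3000 and 4000 against 2000 ppm there were 503 after quantile normalization, 536 in the methylene chloride and ACO fit and 17 with 3000 ppm alone. The trend called 11 genes after quantile normalization, 0 on log10 concentration, 5708 over all 5 concentrations and, both added after seeing the data, 1017 over the 4 concentrations of 1 array mean and 1 as a contrast in the fit of all arrays. Leaving out 1 array gave 0 to 49, 0 to 6 and 1 to 7 calls at 100, 500 and 2000 ppm against air, 1 in every fit for 2000 against 100 and against 500 ppm, 0 in every fit for 500 against 100 ppm, 34 to 289 for the step above 2000 ppm and 0 to 21 for the trend. Over all genes named and settings run, 4102 values kept their direction and side of the threshold, 390 were no longer past it, 278 newly passed and 0 reversed. The causes of these shifts were not tested. No paired analysis was possible because the labels give no replicate numbers shared between groups, and replicates here are numbered in accession order.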
